A study of Mus musculus with 30 samples.

Results

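The genes described here are 36 genes of the mitotic machinery, taken from a fixed list of symbols and not from their values. All 36 were found among the 56691 genes of the table of cultured cardiac fibroblasts, the 55401 genes of the reprogramming table, the 55359 genes of the overexpression table, the 49492 genes of the knockdown table and the 32285 genes of the single-cell matrices. All 36 also passed the filter on low counts in each of the 4 bulk tables, where the lowest count of any member was 24 reads, for Cdc25c in a library with a hairpin against Nr4a3.

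The study asked why fibroblasts of the mouse heart are turned into cardiomyocyte-like cells less readily as the animal ages. It profiled 28 bulk RNA libraries, 14 groups of 2, and 2 single-cell libraries. Every sample was labelled as wild-type primary cardiac fibroblasts (CFs) from heart. The first 4 groups were CFs kept 3 days in culture from neonatal animals (postnatal day 1 to 3) or from animals of 3, 12 and 24 months. A further 6 groups were neonatal, 3-month and 18-month cells at day 3 after LacZ, an inert control gene, or after MGT, the reprogramming cocktail of the transcription factors Mef2c, Gata4 and Tbx5. The headers of the count tables read 13 months for the CFs labelled 12 months and 15 months for the LacZ and MGT cells labelled 18 months. These columns were taken as those groups because no other column or group was left to match, the ages given are those of the labels, and which age is right is not known. The overexpression groups were neonatal CFs, OENr4a3 and its control OECtrl, labelled day 10, while the design text speaks of day 7, and their labels name no MGT. The knockdown cells were CFs of 3 months given MGT together with a hairpin, either shNr4a3 against Nr4a3 or the non-targeting shNT, at day 7, and the single cells were neonatal and 24-month cells given MGT. Nr4a3 is a nuclear receptor of the Nr4a family. The labels do not say whether 2 libraries of a group came from separate animals or cultures, so each p-value reflects the scatter of these libraries alone, which may be technical.

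A cell enters mitosis when cyclin B binds the kinase Cdk1, which sets off chromosome condensation, breakdown of the nuclear envelope and assembly of the spindle. Kinetochores then attach chromosomes to microtubules under the watch of the spindle checkpoint, and the anaphase-promoting complex, with its activator Cdc20, releases the sister chromatids by degrading securin and cyclin B before the cell divides. Most of these genes are transcribed late in the cell cycle, in G2 and M, under the DREAM and MuvB complexes with B-Myb and Foxm1, so their RNA is used as a gauge of how many cells in a culture are dividing.

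Promoters of such genes are known for a cell-cycle homology region, with core letters TTTGAA or TTCGAA, and for CCAAT boxes bound by NF-Y. A promoter entry of RefSeq (build GRCm38.p6, 250 bases before to 50 after the start) was found for 31 of the 36 members, and not for Ccna2, Aurkb, Kif20a, Tpx2 and Cdc25c. Either core was present in 77.4% of the 31 member windows and in 19.4% of the 27025 windows of the table. A CCAAT was present in 77.4% against 37.9%, at 2 or more places in 54.8% against 12.2%, and together with a core in 67.7% against 7.7%. Both strands were searched, TTCGAA is its own reverse complement, and matches were allowed to overlap. A match is a description of letters and not of a bound site. The 150 bases before the start of 4 members whose values recur below are shown to let the 2 kinds of motif be seen side by side, with matches to CCAAT or to either core, on either strand, in capitals.
Mki67, chr7:135716380-135716529, minus strand: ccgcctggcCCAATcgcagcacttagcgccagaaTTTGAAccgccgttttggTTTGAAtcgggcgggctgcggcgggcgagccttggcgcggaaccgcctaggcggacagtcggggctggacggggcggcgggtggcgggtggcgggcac
Top2a, chr11:99024190-99024339, minus strand: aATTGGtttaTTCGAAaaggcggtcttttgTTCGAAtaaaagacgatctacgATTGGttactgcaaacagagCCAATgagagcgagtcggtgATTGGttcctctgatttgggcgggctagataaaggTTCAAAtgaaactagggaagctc
Cdk1, chr10:69352913-69353062, minus strand: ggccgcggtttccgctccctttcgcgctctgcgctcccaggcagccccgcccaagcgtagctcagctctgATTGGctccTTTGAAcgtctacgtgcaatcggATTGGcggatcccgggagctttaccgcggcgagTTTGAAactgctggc
Plk1, chr7:122159285-122159434, plus strand: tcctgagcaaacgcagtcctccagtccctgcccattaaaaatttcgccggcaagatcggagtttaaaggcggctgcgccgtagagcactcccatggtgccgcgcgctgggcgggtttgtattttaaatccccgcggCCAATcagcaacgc
In Plk1 the printed stretch holds a CCAAT only, since its TTTGAA lies after the start of the gene.

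Total counts ran from 17.3M to 22.3M per library in CFs, from 14.5M to 18.8M with LacZ or MGT, from 14.3M to 18.4M in the overexpression experiment and from 39.7M to 43.4M in the knockdown (M, 1e+06 counts). Levels are in CPM, the count per 1e+06 counts of a library, after TMM scaling within a table, so levels are compared only within a table, and a change is a log2 fold change with its standard error (SE). A gene was called at a Benjamini-Hochberg adjusted p under 0.05 of edgeR's quasi-likelihood test, adjusted over all genes of the table. Over all genes tested the median log2 fold change lay near 0 in every comparison. In bulk RNA, fewer dividing cells and less RNA per dividing cell cannot be told apart. All 8 fibroblast markers were detected in every group, and cells of other types were present too, as given beside the results. Xist, which is transcribed from the inactive X of female cells, averaged 1283 CPM (neonatal) and 804 CPM (24 months) in CFs and 0.464 and 0.367 CPM at 3 and 12 months. It averaged 532 CPM in neonatal LacZ cells and 0.54 and 0.205 CPM in 3-month and 18-month LacZ cells. Age and sex composition therefore cannot be told apart in several of the comparisons between ages.

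In cultured CFs the mitotic genes were highest at 3 months and lowest at 24 months. The summed level of the 36 members was 1908 and 2141 CPM in the neonatal libraries, 2550 and 2463 CPM at 3 months, 1558 and 1661 CPM at 12 months, and 1535 and 1356 CPM at 24 months. The 3-month mean was 1.24 times the neonatal one and 1.73 times the 24-month one. Of the 36 members, 32 had their highest group mean at 3 months, 31 had their lowest at 24 months, and 26 followed the order 3 months, neonatal, 12 months, 24 months.

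**Figure D1:**
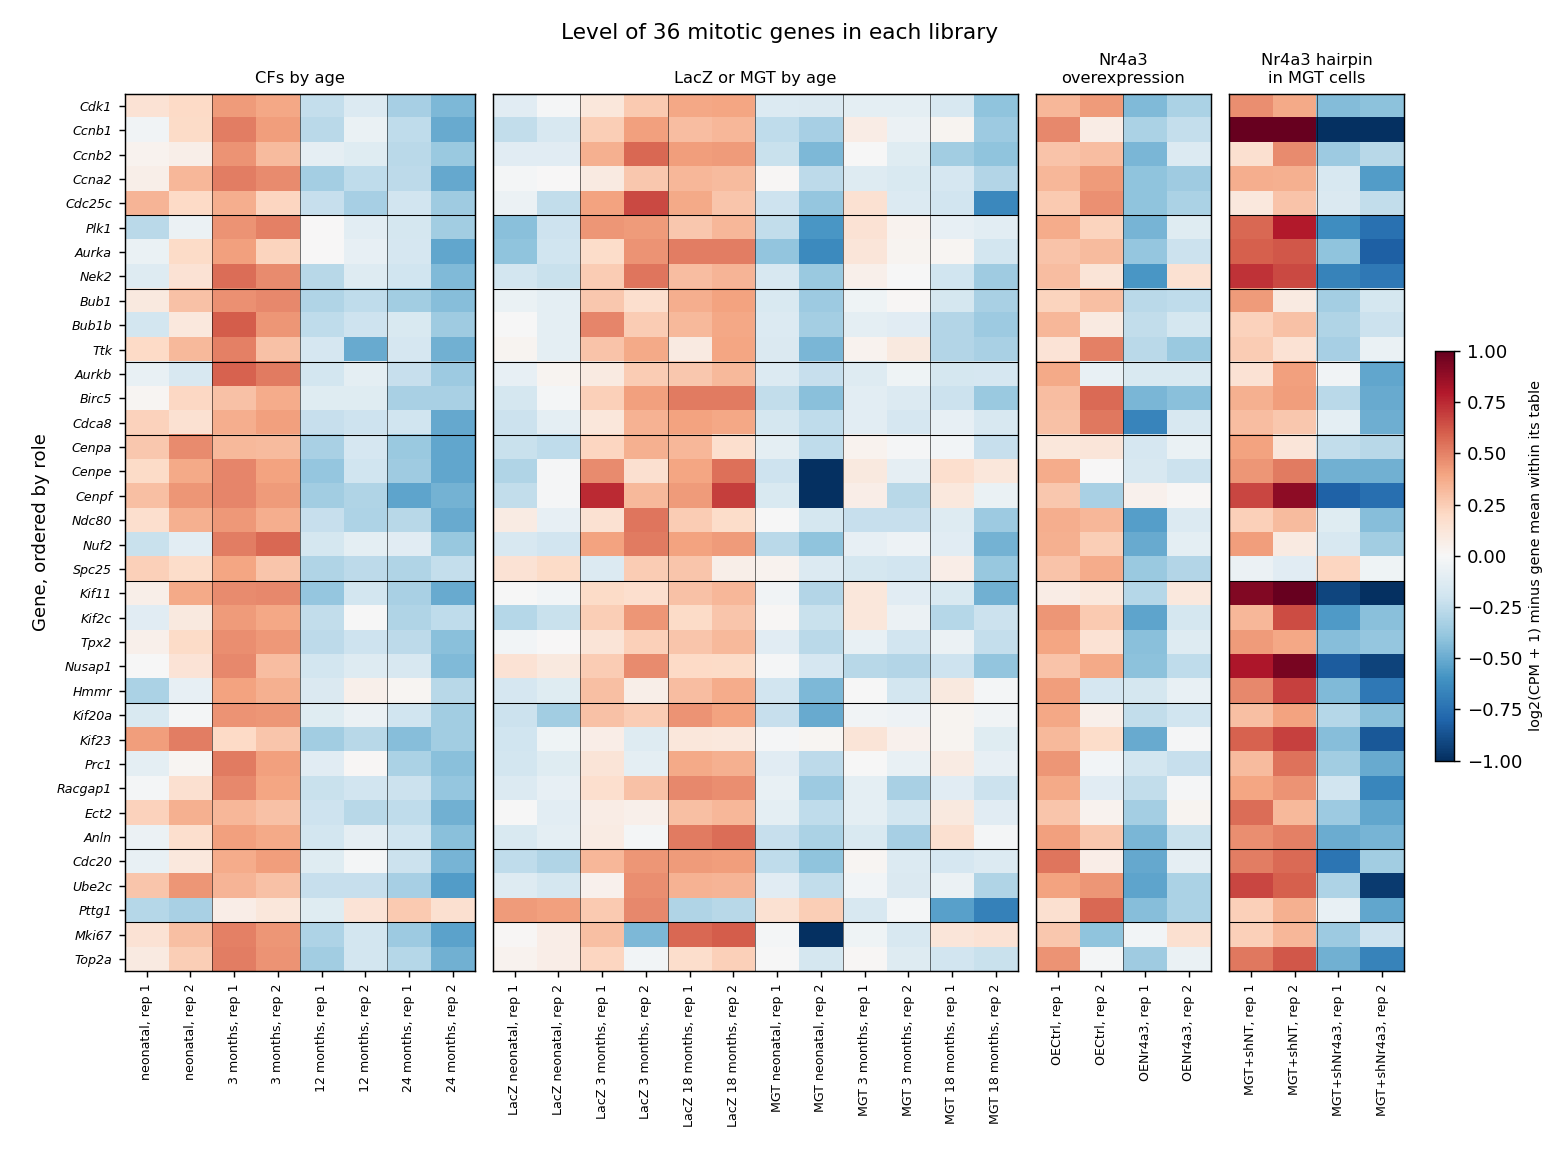
Each row is one of the 36 mitotic genes, ordered by role, and each column one bulk library; colour is log2(CPM + 1) of the library, on a scale that ends at 1 in either direction, minus the mean of that gene over the libraries of its table, so that colours are read within a table. The 3-month CF libraries are high and the 24-month ones low for most rows, and the shNr4a3 columns are low against shNT for nearly all rows.

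Entry into mitosis is driven by Cdk1 with the cyclins Ccnb1, Ccnb2 and Ccna2 and by Cdc25c, a phosphatase that activates Cdk1. Cdk1 stood at 63.3 and 65.9 CPM in neonatal CFs, 77.3 and 75.2 CPM at 3 months, 48.4 and 52.0 CPM at 12 months, and 45.3 and 41.8 CPM at 24 months. Ccnb1 stood at 59.7 and 70.1 CPM in neonatal cells, 87.8 and 82.2 CPM at 3 months, 50.5 and 58.4 CPM at 12 months, and 51.2 and 42.8 CPM at 24 months. For both genes the 3-month libraries lay above all others and the neonatal ones above the 12-month and 24-month ones. Between 3 and 24 months Cdk1 fell by 0.81 ± 0.061 (log2, SE; edgeR adjusted p = 6.98e-12) and Ccnb1 fell by 0.86 ± 0.095 (edgeR adjusted p = 2.18e-05).

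Plk1 drives centrosome maturation, spindle assembly and cytokinesis, and Aurkb is the kinase of the chromosomal passenger complex, which corrects faulty attachments and, with Birc5 and Cdca8, sits at the centromere. Plk1 measured 34.6 and 40.1 CPM in neonatal CFs, 57.6 and 59.8 CPM at 3 months, 41.9 and 38.9 CPM at 12 months, and 36.9 and 32.7 CPM at 24 months. Aurkb measured 22.9 and 21.5 CPM in neonatal CFs, 37.0 and 34.98 CPM at 3 months, 21.1 and 22.5 CPM at 12 months, and 20.5 and 18.5 CPM at 24 months. For these kinases the 3-month pair lay above all other libraries, and the neonatal libraries lay close to those of 12 and 24 months. From neonatal to 3 months Plk1 rose by 0.66 ± 0.073 (edgeR adjusted p = 2.86e-09) and Aurkb by 0.69 ± 0.084 (edgeR adjusted p = 1.54e-08), whereas from neonatal to 24 months their values were -0.10 (edgeR adjusted p = 0.302) and -0.19 (edgeR adjusted p = 0.0765).

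Bub1, a kinase of the spindle checkpoint, gave 33.8 and 38.9 CPM in neonatal CFs, 43.6 and 44.3 CPM at 3 months, 25.4 and 26.3 CPM at 12 months, and 24.6 and 23.2 CPM at 24 months. Cenpf, a large kinetochore protein that builds up in G2, gave 58.2 and 64.4 CPM in neonatal CFs, 66.7 and 63.5 CPM at 3 months, 36.9 and 38.0 CPM at 12 months, and 32.4 and 33.6 CPM at 24 months. In Cenpf the neonatal and 3-month libraries overlapped (log2 difference 0.09, edgeR adjusted p = 0.23), and the 12-month and 24-month libraries lay below both. Cenpf had the largest fall of all members from 3 to 24 months, by 0.98 ± 0.066 (edgeR adjusted p = 5.64e-13), and from neonatal to 24 months, by 0.89 ± 0.067 (edgeR adjusted p = 2.74e-13). Nuf2, part of the Ndc80 complex that holds microtubules at the kinetochore, had the largest rise from neonatal to 3 months, from 25.05 and 27.1 to 42.3 and 44.2 CPM (log2 0.73 ± 0.083, edgeR adjusted p = 3.83e-09).

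Kif20a, a motor of the central spindle that is needed for cytokinesis, gave 59.2 and 65.1 CPM in neonatal CFs, 90.3 and 89.8 CPM at 3 months, 60.6 and 63.4 CPM at 12 months, and 57.4 and 51.5 CPM at 24 months. Cdc20, the activator of the anaphase-promoting complex, gave 43.9 and 49.7 CPM, then 59.9 and 62.2 CPM, 42.5 and 45.5 CPM, and 39.6 and 33.3 CPM in the same order of ages. Both had their 3-month libraries above every other library. Among the markers of cycling cells, Top2a, the topoisomerase that untangles sister chromatids, gave 214 and 239 CPM, 288 and 275 CPM, 158 and 177 CPM, and 165 and 144 CPM in that order. Mki67, the chromosome-coating protein behind the Ki-67 stain, gave 222 and 248 CPM in neonatal CFs and 284 and 273 CPM at 3 months, and from 3 to 24 months fell by 0.92 ± 0.059 (edgeR adjusted p = 3.63e-10).

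From neonatal to 3 months, 27 of 36 members rose, against 28.0% of all genes called higher, and 1 fell, against 24.4% called lower. The median log2 fold change of the 36 was 0.31. All 5 spindle motors and microtubule binders and all 3 passenger complex genes rose, as did 4 of the 5 entry genes, while only 2 of the 6 centromere and kinetochore genes did. The member that fell was Kif23, the motor of the centralspindlin complex, from 43.8 and 46.8 to 37.6 and 39.7 CPM (log2 -0.23 ± 0.071, edgeR adjusted p = 0.0075). That call was lost without the first 3-month library (edgeR adjusted p = 0.0888). The 8 members not called were Cdc25c, Cenpa, Cenpf, Ect2, Ndc80, Spc25, Ttk and Ube2c. The summed level of 8 cardiomyocyte markers was 1016 to 1092 CPM in neonatal and 10.6 to 15.7 CPM in 3-month CFs, and that of 7 endothelial markers was 920 to 931 CPM against 117 to 169 CPM. All 8 cardiomyocyte markers, 5 of the 7 endothelial ones and all 5 epicardial and mesothelial ones fell. Myl7 was at 0 in both 3-month libraries, and the part of these cells in the result was not tested.

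From 3 to 12 months 35 of 36 members fell, against 15.5% of all genes called lower, with a median of -0.63 and Ccna2, a cyclin of S phase and G2, falling most, from 90.7 and 88.3 to 49.85 and 52.8 CPM (log2 -0.80 ± 0.088, edgeR adjusted p = 5.25e-06). From 3 to 24 months 35 of 36 also fell, against 9.47% called lower, with a median of -0.77. These 2 comparisons share the 3-month libraries. The member not called in the second was Pttg1, securin, at 15.4 and 15.9 CPM at 3 months and 17.7 and 16.4 CPM at 24 months. Endothelial and macrophage markers had summed levels of 117 to 169 and 133 to 154 CPM at 3 months and 72.5 to 91.2 and 208 to 217 CPM at 24 months, with 5 of 7 endothelial markers lower and 3 of 8 macrophage markers higher, and their part in the result was not tested.

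The same 2 older groups were also lower than neonatal cells for most members. At 12 months 22 of 36 members were lower, against 25.5% of all genes, and 1 was higher, against 29.7%. At 24 months 31 were lower, against 26.6%, and 1 higher, against 27.9%, with medians of -0.32 and -0.46. Kif23 had the largest fall to 12 months, to 25.3 and 26.7 CPM (log2 -0.80 ± 0.076, edgeR adjusted p = 8.24e-11). The member called higher in both was Pttg1, from 11.9 and 11.5 CPM to 13.4 and 16.2 CPM at 12 months (log2 0.34 ± 0.116, edgeR adjusted p = 0.0121) and 17.7 and 16.4 CPM at 24 months (log2 0.55 ± 0.112, edgeR adjusted p = 9.55e-05). The 12-month call of Pttg1 was lost without the second 12-month library (edgeR adjusted p = 0.257) and without either neonatal library (edgeR adjusted p = 0.0508 and 0.0843). By 24 months all 5 entry genes and all 6 central spindle genes had fallen below the neonatal level, and Aurkb, Hmmr, Nuf2 and Plk1 were not called. In both comparisons all 8 cardiomyocyte, 6 of 7 endothelial and all 5 epicardial and mesothelial markers fell. The neonatal, 12-month and 24-month means of their sums were 1054, 29.8 and 24.1 CPM for cardiomyocyte, 926, 80.1 and 81.9 CPM for endothelial and 107, 1.63 and 1.82 CPM for epicardial and mesothelial markers, and the part of these cells in the result was not tested.

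Between 12 and 24 months 6 members fell, against 8.07% of all genes, with a median of -0.14. Prc1, which bundles the microtubules of the central spindle, fell most, from 76.8 and 83.7 to 66.6 and 61.9 CPM (log2 -0.32 ± 0.06, edgeR adjusted p = 0.000127), and it was the only member of the 6 whose call held in every alternative run. The count was 1 without the second 12-month or the second 24-month library and 11 without the first 24-month library.

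**Figure D2:**
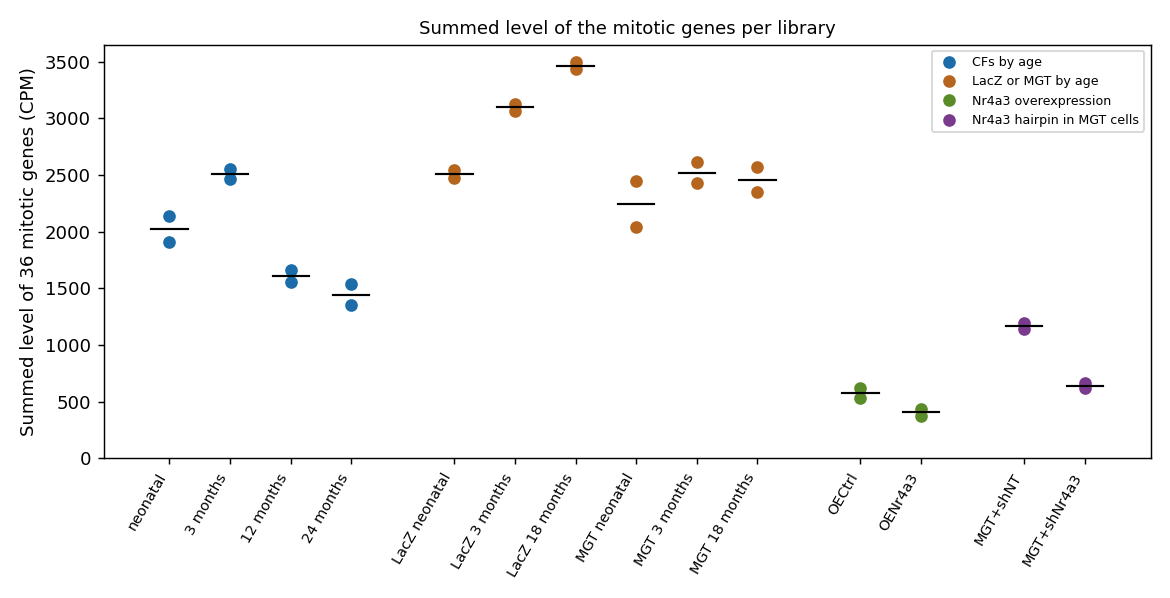
Points are the summed CPM of the 36 mitotic genes in each bulk library, grouped by condition along the horizontal axis, with 1 colour for each of the 4 separately scaled tables, and short lines are group means. The 3-month CF libraries lie at 2550 and 2463 CPM above all other CF libraries, and every MGT library of 3 or 18 months lies below every LacZ library of its age.

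The rest of the cell-cycle programme gave the following counts over lists of other genes. Of 38 other mitotic genes, 28 rose from neonatal to 3 months and 36 fell from 3 to 24 months, where 1 rose. Cep55, a protein of abscission, rose by 0.66 ± 0.088 (edgeR adjusted p = 1.02e-07) in the first, and Ncapd2, a condensin subunit, fell by 0.72 ± 0.055 (edgeR adjusted p = 8.41e-12) in the second. Of 20 S-phase genes, 19 rose and 1 fell in the first and 20 fell in the second, with Pcna, the sliding clamp of replication, at 0.67 ± 0.055 (edgeR adjusted p = 2.8e-12) and -0.49 ± 0.054 (edgeR adjusted p = 1.47e-08). Of 12 genes of G2/M transcription 5 rose and 1 fell from neonatal to 3 months, and 1 rose and 5 fell from 3 to 24 months. At 24 months against neonatal cells 4 of them rose and 4 fell. Among the 12, Foxm1, which activates many mitotic genes, averaged 48.7, 61.0, 40.4 and 39.2 CPM from neonatal to 24 months. Of 7 inhibitors of cyclin-dependent kinases 3 rose and 2 fell from neonatal to 3 months, with a median of 0.14, and 2 rose and 2 fell from 3 to 24 months, with a median of -0.085. Among them, Cdkn1a (p21) fell by 0.38 ± 0.042 from neonatal to 3 months (edgeR adjusted p = 1.75e-09) and rose by 0.63 ± 0.042 from 3 to 24 months (edgeR adjusted p = 3.56e-13).

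At day 3 the LacZ and MGT cells gave a further comparison of ages, in cells that had all been given a transgene. In LacZ cells the members were lowest in neonatal cells, with sums of 2472 and 2541 CPM, against 3126 and 3067 CPM at 3 months and 3434 and 3495 CPM at 18 months. From neonatal cells 21 of 36 rose to 3 months, against 15.1% of all genes, and none fell. To 18 months 26 rose, against 16.7%, and 1 fell, against 18.3%. The 2 comparisons share the neonatal LacZ libraries, with medians of 0.38 and 0.50. Plk1 had the largest rise to 3 months, from 51.3 and 59.5 to 93.8 and 92.6 CPM (log2 0.75 ± 0.103, edgeR adjusted p = 1.89e-06). Aurka, the kinase of the spindle poles, had the largest rise to 18 months, from 31.2 and 36.1 to 59.7 and 59.9 CPM (log2 0.83 ± 0.114, edgeR adjusted p = 1.73e-06). Pttg1 was the member that fell, from 29.4 and 29.1 to 17.4 and 17.7 CPM (log2 -0.73 ± 0.119, edgeR adjusted p = 2.06e-05). Neonatal LacZ cells held 290 to 337 CPM of cardiomyocyte markers and 304 to 336 CPM of endothelial markers, and 18-month ones 3.73 to 6.32 and 7.36 to 12.8 CPM, with Pln at 0. Epicardial and mesothelial markers summed to 416 to 445 CPM in neonatal, 7.74 to 7.84 CPM in 3-month and 11.8 to 12.1 CPM in 18-month LacZ cells. All 5 of these were lower at 3 months and 4 of 5 at 18 months. The part of these cells in the result was not tested.

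From 3 to 18 months the LacZ cells showed 2 members higher, against 10.8% of all genes, and 1 lower, against 12.2%, with a median of 0.12. Anln, an anchor of the contractile ring, rose from 224 and 208 to 303 and 311 CPM (log2 0.51 ± 0.086, edgeR adjusted p = 6.55e-05), and Pttg1 fell from 26.2 and 30.7 CPM (log2 -0.70 ± 0.12, edgeR adjusted p = 8.71e-05). Without the first or the second 3-month LacZ library, 8 and 9 members were called. Mki67 was at 241 CPM in the first of these libraries and 143 CPM in the second. The untreated CFs of 24 months and the LacZ cells of 18 months thus lay on opposite sides of their neonatal groups, in separately scaled tables with different culture and age, and that difference was not tested.

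Mitotic genes were lower with MGT than with LacZ in cells of 3 and 18 months. The summed level of the MGT libraries was 2613 and 2431 CPM at 3 months and 2572 and 2349 CPM at 18 months, lower than LacZ by a factor of 1.23 and 1.41 in the mean, and 2445 and 2042 CPM in neonatal cells, where the factor was 1.12. Group means were lower with MGT for 33 of 36 members in neonatal cells, 35 at 3 months and 36 at 18 months. At 18 months 30 of 36 members fell, against 8.05% of all genes called lower, with a median of -0.50. At 3 months 21 fell, against 8.39%, with a median of -0.32. In neonatal cells edgeR called 0 members, against 3.24% of all genes called lower, with a median of -0.15. There, 2 members were lower at an unadjusted p under 0.05, DESeq2 also called 0, and leaving out 1 library at a time gave 0 to 2.

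At 18 months every role had members that fell. All 5 entry genes, all 3 mitotic kinases, all 3 checkpoint genes, all 3 passenger complex genes and all 5 spindle motors and microtubule binders fell. Cdk1 went from 152 and 153 CPM with LacZ to 104 and 87.9 CPM with MGT (log2 -0.67 ± 0.09, edgeR adjusted p = 5.3e-06). Birc5, survivin, had the largest fall, from 76.0 and 76.0 to 45.3 and 40.5 CPM (log2 -0.82 ± 0.10, edgeR adjusted p = 1.08e-06). Bub1 went from 58.2 and 59.8 to 39.6 and 35.7 CPM (log2 -0.65, edgeR adjusted p = 3.61e-05). The libraries of these genes did not overlap, and the MGT libraries of 18 months lay below the neonatal LacZ level of 108 and 115 CPM for Cdk1 and 43.0 and 42.0 CPM for Bub1. Not called were Cenpe, Cenpf, Kif23, Mki67, Pttg1 and Spc25.

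Among the other members followed, Ccnb1 went from 118 and 119 CPM with LacZ to 96.6 and 73.4 CPM with MGT at 18 months (edgeR adjusted p = 0.0018). Plk1 went from 83.0 and 87.0 to 64.8 and 63.7 CPM (edgeR adjusted p = 0.0069). The calls of both were lost without the second MGT library (edgeR adjusted p = 0.0808 and 0.0599), and that of Plk1 also without the second LacZ library (edgeR adjusted p = 0.085). Aurkb went from 42.5 and 44.2 to 30.9 and 31.1 CPM (edgeR adjusted p = 0.0014). Kif20a went from 139 and 135 to 103 and 99.0 CPM (edgeR adjusted p = 0.00136), and Cdc20 from 119 and 118 to 78.4 and 80.2 CPM (edgeR adjusted p = 3.5e-05). All the libraries with MGT lay below those with LacZ for these 5 genes, and Top2a did the same, at 292 and 305 against 225 and 221 CPM (edgeR adjusted p = 0.00156). Cardiomyocyte markers rose from 3.73 to 6.32 CPM to 340 to 356 CPM in sum, with 5 of 7 tested markers called higher. Epicardial and mesothelial markers summed to 11.8 to 12.1 CPM with LacZ and 65.7 to 73.9 CPM with MGT, with 3 of 5 higher. The part of these cells in the result was not tested.

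Mki67 and Cenpf were measured with a wide spread in this table. Mki67 read 292 and 299 CPM with LacZ and 213 and 217 CPM with MGT at 18 months, without overlap, yet its SE was 0.378 and its adjusted p was 0.502 by edgeR. In neonatal MGT cells Mki67 read 193 CPM in one library and 86.8 CPM in the other, and Cenpf 39.4 and 13.8 CPM. Of the 36 members, 6 have over 8000 bases of exons in the deposited lengths. In the second neonatal MGT library these 6 differed from the first by a median of -0.66 (log2) and the other 30 by -0.18, and in the second 3-month LacZ library by -0.28 and 0.16. Over all genes with an average log2 CPM above 3, the same classes gave -0.014 and 0.016 in the neonatal MGT pair. In the 3-month LacZ pair they gave -0.23 and 0.075. Whether gene length has a part in these differences was not tested.

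At 3 months the members that fell with MGT included all 5 entry genes and all 3 genes of the anaphase ubiquitin group, but neither Mki67 nor Top2a. Nusap1, which binds spindle microtubules, fell most, from 42.1 and 49.1 to 28.8 and 28.5 CPM (log2 -0.67 ± 0.108, edgeR adjusted p = 4.32e-05). Cdc20 fell from 111 and 120.2 to 89.5 and 80.0 CPM (log2 -0.45 ± 0.089, edgeR adjusted p = 0.000486). Cdk1 fell from 126 and 140.0 to 109 and 109 CPM (log2 -0.29, edgeR adjusted p = 0.0264), a call lost without either MGT library or the second LacZ library (edgeR adjusted p = 0.13 to 0.151). Cardiomyocyte markers summed to 4.66 to 5.12 CPM with LacZ and 370 to 397 CPM with MGT at 3 months, with 5 of 7 tested higher. Epicardial and mesothelial markers summed to 7.74 to 7.84 against 85.1 to 90.9 CPM, with 3 of 5 higher and 1 lower, and macrophage markers to 321 to 327 against 414 to 424 CPM, with 2 of 8 higher. The part of these cells in the result was not tested. The count at 3 months was 12 and 8 without the first and the second MGT library, and 10 when only these 2 groups were fitted.

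The effect of MGT differed from that in neonatal cells for 7 members at 18 months, all more negative, against 0.788% of all genes, with a median difference of -0.39. Kif2c, a microtubule-depolymerising kinesin of the centromere, differed most. It went from 34.4 and 35.97 CPM to 42.5 and 35.9 CPM with MGT in neonatal cells and from 48.2 and 51.1 to 34.3 and 36.2 CPM at 18 months (difference -0.65 ± 0.152, edgeR adjusted p = 0.0147). The others were Cdk1, Ccnb2, Birc5, Nek2, Racgap1 and Cdc20. This count was 0 without the first neonatal LacZ library and 11 without the second neonatal MGT library, and none of the 7 was called in every alternative run. The difference between 3 months and neonatal had 0 calls by edgeR and by DESeq2, 11 at an unadjusted p under 0.05 and up to 10 with a library left out. That between 18 and 3 months had 0 by both tools, 7 at an unadjusted p under 0.05 and up to 3 with a library left out. The shares of all genes called lower were 1.41% and 0.782%, and these differences share groups.

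Among MGT cells alone, the ages were compared in the same way, and the counts depended on single libraries. From neonatal to 3 months 8 members rose, against 12.5% of all genes, and to 18 months 5 rose, against 14.4%, and 1 fell, against 16.2%. From 3 to 18 months 1 rose, against 8.12%, and 4 fell, against 9.29%. Aurka rose most from neonatal cells, from 31.5 and 26.4 to 45.3 and 42.3 CPM at 3 months (log2 0.60). Pttg1 was the member that fell to 18 months, from 24.2 and 25.98 CPM in neonatal MGT cells to 14.6 and 13.2 CPM (log2 -0.85 ± 0.124, edgeR adjusted p = 5.03e-06). From neonatal cells the counts were 1 to 11 at 3 months and 1 to 9 at 18 months with 1 library left out. From 3 to 18 months they were 1 to 5. Against neonatal MGT cells all 6 endothelial markers tested were lower at both ages, and 6 and 5 of 7 cardiomyocyte markers were lower at 3 and 18 months, and the part of these cells was not tested.

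**Figure D3:**
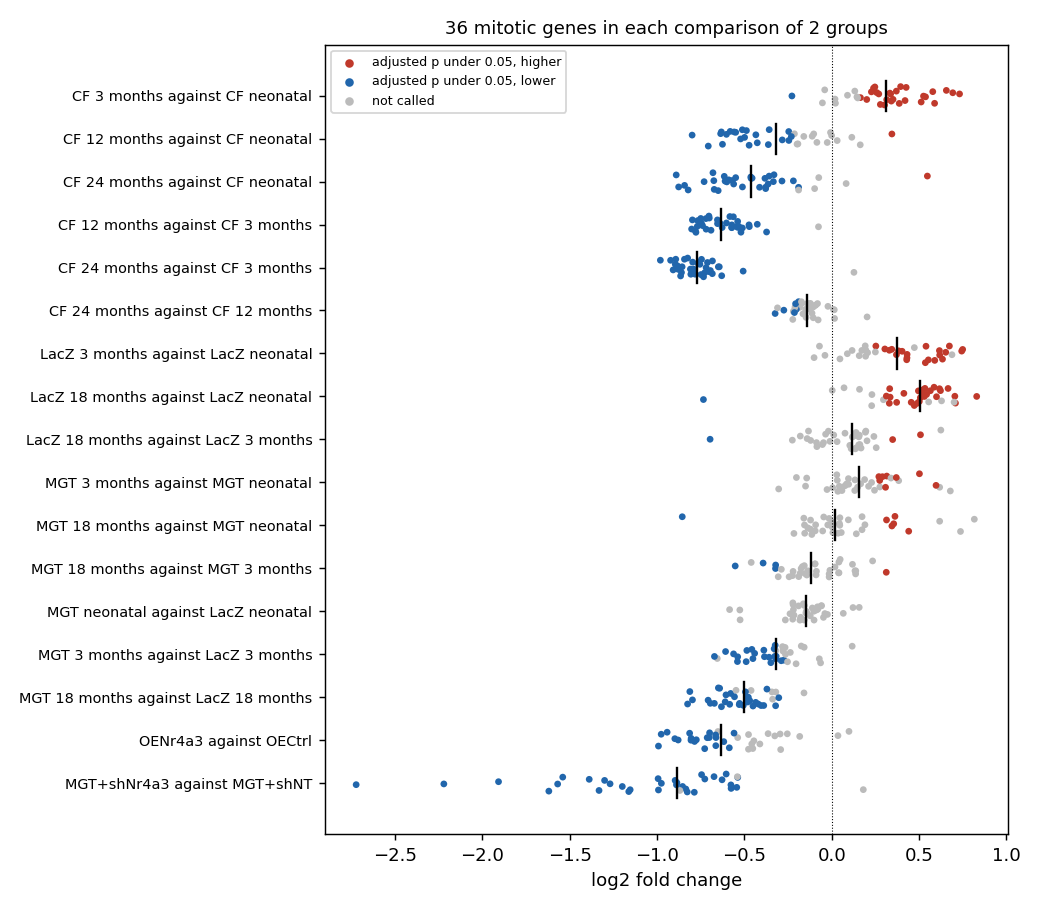
Each point is the log2 fold change of one of the 36 mitotic genes in one comparison, red where edgeR called it higher, blue where lower and grey where not called, and the bar is the median of the 36. Medians run from -0.89 for shNr4a3 against shNT to 0.50 for 18-month against neonatal LacZ cells, and the point of Pttg1 lies apart from the rest in several comparisons.

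Of 38 other mitotic genes, 26 fell with MGT at 18 months and none rose. Of 20 S-phase genes 19 fell, among them Rrm1, a subunit of the ribonucleotide reductase, by 0.47 ± 0.08 (edgeR adjusted p = 0.000131). Of 12 genes of G2/M transcription 4 fell, including Foxm1 (log2 -0.36 ± 0.096, edgeR adjusted p = 0.00949), whose mean went from 84.0 to 65.3 CPM. Among 7 inhibitors of cyclin-dependent kinases 1 rose and 2 fell, and Cdkn1b (p27) fell by 0.66 ± 0.106 (edgeR adjusted p = 6.63e-05).

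Overexpression of Nr4a3 was accompanied by lower mitotic gene levels in neonatal CFs. Nr4a3 itself stood at 2.49 and 1.85 CPM in OECtrl and at 175 and 178 CPM in OENr4a3. The 36 members summed to 623 and 536 CPM in OECtrl and to 377 and 437 CPM in OENr4a3, lower by a factor of 1.42. Of the 36, 20 fell, against 10.8% of all genes called lower, and none rose, with a median of -0.63. All 5 entry genes fell, and 1 of the 6 central spindle genes. Neither Mki67 nor Top2a was called.

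Cdk1 went from 32.7 and 35.1 CPM to 18.8 and 20.6 CPM (log2 -0.78 ± 0.125, edgeR adjusted p = 0.00431), and Ccna2 from 20.4 and 21.8 to 11.9 and 12.3 CPM (log2 -0.80 ± 0.136, edgeR adjusted p = 0.00553). Birc5 went from 11.8 and 14.4 to 6.55 and 6.79 CPM (log2 -0.98 ± 0.17, edgeR adjusted p = 0.0062). Ube2c, the ubiquitin-conjugating enzyme of the anaphase-promoting complex, went from 11.8 and 12.2 to 5.73 and 6.79 CPM (log2 -0.94 ± 0.169, edgeR adjusted p = 0.00693). These 4 did not overlap between groups and were the only members called in every alternative run. The largest fall was that of Cdc25c, from 3.46 and 4.13 to 1.82 and 2.00 CPM (log2 -0.99 ± 0.272, edgeR adjusted p = 0.0311), and this call was lost in DESeq2 and without the second control library or either OENr4a3 library (adjusted p = 0.0606 to 0.193).

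Ccnb1 read 15.02 and 11.1 CPM in OECtrl and 8.21 and 8.73 CPM in OENr4a3 (edgeR adjusted p = 0.0404), Plk1 read 9.34 and 8.32 against 4.79 and 6.34 CPM (edgeR adjusted p = 0.042), and Bub1 10.3 and 10.9 against 7.05 and 7.12 CPM (edgeR adjusted p = 0.0315). These 3 calls, without overlap between groups, were lost in DESeq2 and without the first OENr4a3 library. Cdc20 read 19.7 and 13.9 against 8.98 and 12.4 CPM (edgeR adjusted p = 0.0525), Kif20a 21.9 and 17.1 against 13.7 and 14.2 CPM (edgeR adjusted p = 0.0555), and Aurkb 8.30 and 5.80 against 5.45 and 5.45 CPM (edgeR adjusted p = 0.25). Their libraries did not overlap either, and none was called. Top2a read 65.7 and 47.1 against 37.2 and 45.6 CPM (edgeR adjusted p = 0.0813), Mki67 49.3 and 30.5 against 39.8 and 45.5 CPM (edgeR adjusted p = 0.741), and Cenpf 14.8 and 9.45 against 12.5 and 12.2 CPM (edgeR adjusted p = 0.915). Of these, Mki67 and Cenpf overlapped between groups. In the second control library the 6 members over 8000 bases were lower than in the first by a median of -0.48 (log2) and the other 30 by -0.015. Over all genes with an average log2 CPM above 3, the same classes gave -0.20 and 0.06, and the part of length was not tested.

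The count of 20 was 4 without the first OENr4a3 library and 9 with DESeq2. Markers of other cells moved too: in OECtrl and OENr4a3 the sums were 926 to 939 and 604 to 623 CPM for 8 macrophage markers, of which 3 fell, 827 to 926 and 389 to 424 CPM for 5 epicardial and mesothelial markers, of which 3 fell, and 453 to 498 and 263 to 292 CPM for 8 cardiomyocyte markers, of which 5 were tested, 2 rose and 1 fell, with a median of 1.14 (log2) that has the opposite sign to the change of the sum. Their part in the result was not tested. Xist averaged 253 CPM in OECtrl and 484 CPM in OENr4a3, while the summed level of Y-linked genes was 216 and 213 CPM. Of 38 other mitotic genes 12 fell and none rose, and of 20 S-phase genes 8 fell, with Rrm2, the other reductase subunit, at -0.75 ± 0.131 (edgeR adjusted p = 0.00613). The 11 tested genes of G2/M transcription had 1 that rose and none that fell, with a median of -0.080. Of 14 genes of G1 and E2F 3 rose and 3 fell, with log2 values from -0.89 to 0.58. Among those that rose was Ccnd1, the cyclin of early G1, by 0.58 ± 0.117 (edgeR adjusted p = 0.0113).

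The hairpin against Nr4a3, in MGT cells of 3 months, was also accompanied by lower mitotic gene levels, with a median over the members of -0.89. Nr4a3 stood at 8.84 and 8.18 CPM with shNT and at 0.431 and 0.744 CPM with shNr4a3. The 36 members summed to 1144 and 1191 CPM with shNT and to 664 and 618 CPM with shNr4a3, lower by a factor of 1.82. Of the 36, 33 fell, against 26.7% of all genes called lower, and none rose. The 3 members not called were Cdc25c, Spc25 and Ttk. Spc25, a subunit of the Ndc80 complex, read 57.2 and 55.1 CPM with shNT and 69.3 and 58.0 CPM with shNr4a3 (log2 0.18 ± 0.10, edgeR adjusted p = 0.145).

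Ccnb1 had the largest fall, from 11.2 and 10.9 to 1.77 and 1.58 CPM (log2 -2.72 ± 0.189, edgeR adjusted p = 8.02e-08). Its kinase partner Cdk1 fell less, from 28.2 and 26.5 to 14.6 and 14.9 CPM (log2 -0.89 ± 0.11, edgeR adjusted p = 1.65e-05). Plk1 fell from 11.6 and 13.7 to 4.50 and 4.04 CPM (log2 -1.57, edgeR adjusted p = 3.66e-06). All 3 mitotic kinases and all 5 spindle motors and microtubule binders fell. Among the latter were Kif11, the motor that pushes spindle poles apart, from 18.2 and 20.03 to 4.36 and 3.86 CPM (log2 -2.22), and Nusap1, from 22.8 and 25.3 to 6.65 and 6.16 CPM (log2 -1.91). Cenpf fell from 50.05 and 58.7 to 17.4 and 18.0 CPM (log2 -1.62, edgeR adjusted p = 6.03e-08), and Cdc20 from 8.37 and 8.71 to 2.94 and 4.14 CPM (log2 -1.27, edgeR adjusted p = 0.000135).

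Kif20a fell from 21.4 and 23.0 to 13.95 and 12.6 CPM (log2 -0.74, edgeR adjusted p = 0.000146). Top2a fell from 133 and 141 to 65.3 and 57.0 CPM (log2 -1.16 ± 0.092, edgeR adjusted p = 2.61e-07), and Mki67 from 152 and 162 to 99.6 and 111 CPM (log2 -0.58, edgeR adjusted p = 9.02e-05). Among the members with low counts, Bub1 stood at 5.01 and 3.75 against 2.54 and 2.95 CPM (edgeR adjusted p = 0.029) and Aurkb at 2.58 and 3.29 against 2.15 and 1.26 CPM (edgeR adjusted p = 0.048). Both calls were lost in DESeq2 (adjusted p = 0.0968 and 0.139). That of Bub1 was also lost without the first library of either group, and that of Aurkb without the second library of either group.

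Among other cell-cycle genes the hairpin groups differed widely. Of 36 other mitotic genes tested 22 fell and 2 rose, with Dlgap5, a microtubule binder, at -1.42 ± 0.128 (edgeR adjusted p = 9.06e-07), and of 20 S-phase genes 16 fell, with Mcm2, a subunit of the replicative helicase, at -1.22 ± 0.109 (edgeR adjusted p = 8.26e-07). The 12 genes of G2/M transcription had 2 that rose and 2 that fell, with a median of 0.0026. Of 7 inhibitors of cyclin-dependent kinases 4 rose and 1 fell. Cdkn1c (p57) went from 13.4 and 8.89 CPM to 317 and 337 CPM (log2 4.88 ± 0.164, edgeR adjusted p = 2.54e-09), and Cdkn1a rose by 0.31 ± 0.083 (edgeR adjusted p = 0.00718). Of 14 genes of G1 and E2F 5 rose and 4 fell, with log2 values from -1.82 to 4.32. Among them, Ccnd3, a G1 cyclin, rose by 2.09 ± 0.116 (edgeR adjusted p = 1.01e-08) and Cdk6, a G1 kinase, fell by 1.82 ± 0.126 (edgeR adjusted p = 7.89e-08). The sum of cardiomyocyte markers was 9465 to 11059 CPM with shNT and 5474 to 6244 CPM with shNr4a3, with 3 of 8 higher and 2 lower. The sum of fibroblast markers was 4273 to 4515 CPM against 6095 to 6406 CPM, with 2 of 8 higher and 5 lower. The sum of 8 macrophage markers was 124 to 159 CPM against 110 to 115 CPM, with 4 lower and none higher and a median of -1.27, and that of smooth muscle and pericyte markers was 47.5 to 51.0 CPM against 106 to 117 CPM, with 3 of 5 tested higher and 1 lower. The part of these cells in the result was not tested.

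**Figure D4:**
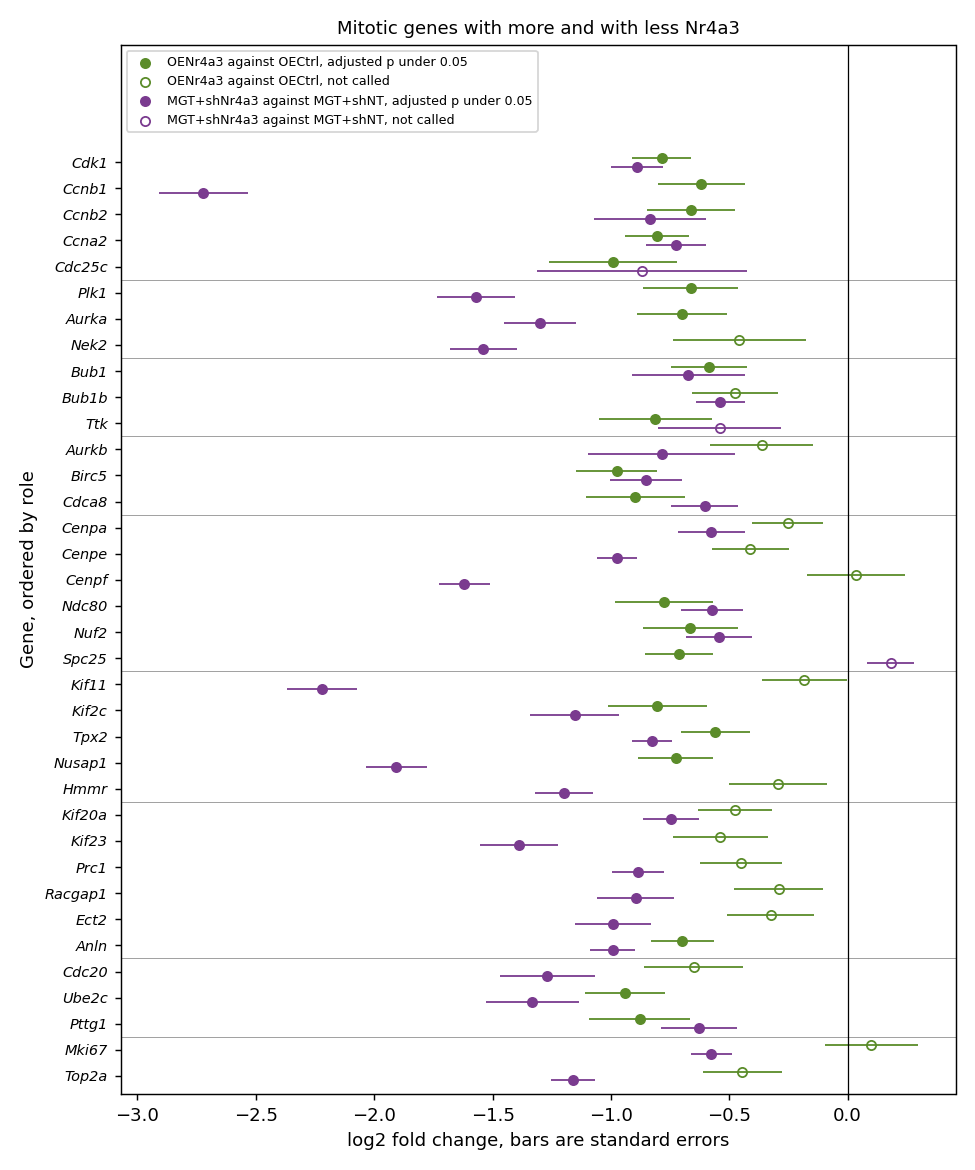
Each row is one of the 36 mitotic genes, ordered by role, and the horizontal axis is the log2 fold change, in green for OENr4a3 against OECtrl and in purple for shNr4a3 against shNT, filled where called, with bars of 1 SE. In 33 of 36 rows both points lie below 0, with Spc25 above 0 for the hairpin and Mki67 and Cenpf just above 0 for overexpression.

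The overexpression and hairpin experiments share no library, though they differ in age of the cells, day and MGT. Both went with lower values for 33 of 36 members. Called lower in both were 17 members, which is 85.0% of the 20 called with overexpression and 51.5% of the 33 called with the hairpin, and each of the 36 was called in at least 1 of them. Mki67 and Top2a were among the 16 called with the hairpin alone.

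How alike the members were was described over the 20 libraries of the CF and the LacZ and MGT tables, after centring each gene within its table. The correlation of a member with the mean of the other 35 was 0.888 at the median and at least 0.9 for 15 of 36. Lowest were Pttg1 at -0.087, Kif23 at 0.604, Spc25 at 0.730 and Mki67 at 0.731. These points come in groups of 2 libraries that share a condition, and library composition is shared by all genes. Each of 15293 genes was also compared with the mean of the 36, and the members and all genes of the other lists used here were then set aside. Among the genes left, the most alike were Cip2a (Pearson r 0.984), Knstrn (0.951), Spdl1 (0.941), Troap (0.941) and Tmpo (0.922). Other mitotic and S-phase genes of those lists were therefore not ranked. On a scale per kilobase of exon, Cdc20 was the highest member in 3-month, 12-month and 24-month CFs, in all LacZ and MGT groups and in OECtrl and OENr4a3. In 3-month CFs it stood at 32.7 CPM per kilobase, against 31.2 for Top2a and 27.7 for Mki67. Top2a was highest in neonatal CFs, at 25.13 against 25.07 for Cdc20, and Spc25 was highest with shNT and shNr4a3.

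In single cells given MGT, several mitotic genes were detected together in a small share of cells in both libraries. With 1 neonatal and 1 24-month library there is no test, and intervals are exact and cover counting error only. After filtering, 3828 neonatal and 5773 24-month cells remained, with medians of 13960 and 20771 UMIs and 11 cell barcodes present in both libraries. Cells were thinned to 2000 UMIs, which left out 826 and 1225 shallower cells. A cell with UMIs of at least 3 of the 36 members was then found in 156 of 3002 neonatal cells, 5.20% (95% binomial interval 4.43 to 6.05%), and in 217 of 4548 24-month cells, 4.77% (4.17 to 5.43%). The intervals overlap. Without thinning the shares were 36.9% and 26.6%.

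Over all cells the members summed to 542 CPM in the neonatal and 372 CPM in the 24-month library. Of the 36, 30 were lower and 6 higher in the 24-month library, with counting intervals of the difference below 0 for 27 and above 0 for 3. The 2 that were at least 2-fold lower, against 12.2% of all genes with at least 10 UMIs, were Cenpa, the centromeric histone, at 69.0 and 19.7 CPM (log2 -1.81), and Pttg1, at 116 and 56.8 CPM (log2 -1.03). None was at least 2-fold higher, against 11.0% of all genes. Ube2c read 45.7 and 28.5 CPM, Cdk1 32.0 and 21.97 CPM, and Top2a 21.6 and 27.7 CPM. Mki67 read 12.1 and 18.0 CPM, so the 2 chromatin genes lay in the opposite order from Cdk1. These libraries differ in cell types, so the values describe 2 cultures and not the ages.

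Pttg1 was spread over cells that held no other member. Pttg1 had a UMI in 20.3% of neonatal and 10.9% of 24-month cells with 0 of the other members and in 16.7% and 6.19% of those with at least 3. For Ube2c the same shares were 0.795% and 0.433% against 50.3% and 48.8%. For Cenpa they were 8.19% and 1.09% against 44.3% and 33.0%, so Cenpa was more frequent in cells with other members. Without Pttg1 and Cenpa, an alternative chosen after seeing the data, cells with at least 3 members made up 4.30% (3.60 to 5.09%) and 4.55% (3.96 to 5.20%), and cells with at least 1 went from 37.6% and 24.1% to 13.99% and 13.9%. Without these 2 genes the share with at least 3 members was thus lower in the neonatal library, within overlapping intervals.

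Clusters were made without 41 of the 2000 variable genes, which were members or genes of the cell-cycle lists. Cell-cycle genes outside these lists were not left out, and their part in the clusters was not tested. Doublets were not called. Cluster 4 had 88.5% (69 of 78) and 80.2% (97 of 121) cells with at least 3 members in the neonatal and the 24-month library, and held 44.2% and 44.7% of all such cells. Its leading genes by fold were Ube2c, Pclaf, Top2a, Prc1 and Birc5, all 8 fibroblast markers were detected in at least 25% of its cells, and it is given by its number. A macrophage-like cluster had 10.4% (19 of 183) and 12.9% (86 of 668), and held 12.2% and 39.6% of such cells. The cardiomyocyte-like cluster had 2.71% (15 of 554) of its neonatal cells, and an endothelial-like one 10.5% (8 of 76). Cluster 8, led by Mmp3 and C3, had 0.305% (8 of 2625) of its 24-month cells. Cluster 0, with all 8 fibroblast markers detected in at least 25% of its cells, had 2.55% (29 of 1138) of its neonatal cells. By markers, neonatal cells with 0, with 1 or 2, and with at least 3 of the cardiomyocyte markers had shares of 8.28% (42 of 507), 4.93% (89 of 1807) and 3.63% (25 of 688), all thinned to the same depth. These classes were not split by cluster, and the part of cell types in their shares was not tested.

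**Figure D5:**
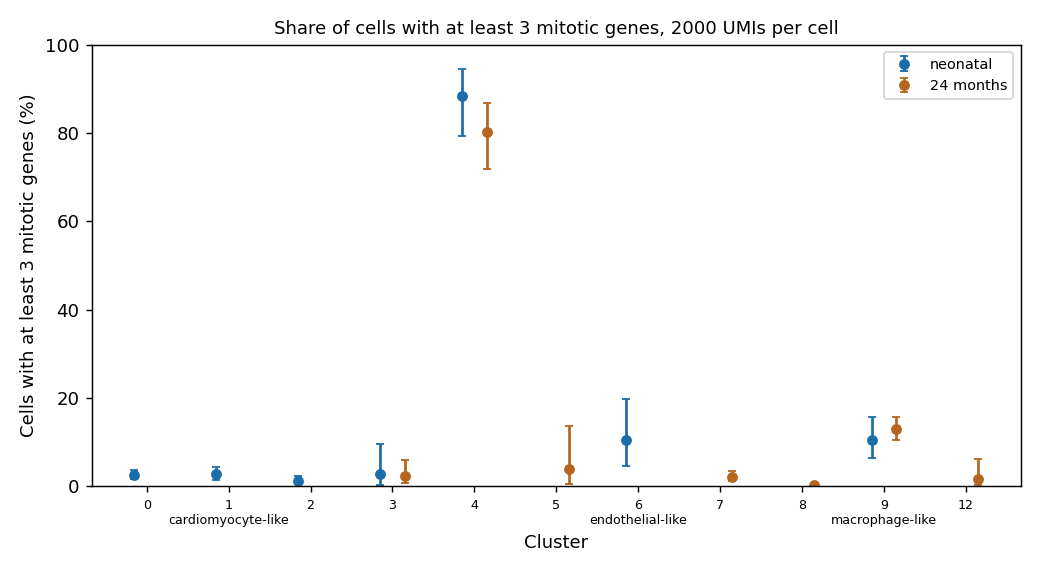
Points give the percent of cells, thinned to 2000 UMIs, with UMIs of at least 3 of the 36 mitotic genes in each cluster with 50 or more thinned cells of the neonatal or the 24-month library, with exact 95% binomial intervals as bars. Cluster 4 stands at 88.5% and 80.2%, and the macrophage-like cluster, one of the next highest, at 10.4% and 12.9%.

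Cells with at least 3 members also carried the S-phase programme. The S-phase genes summed to 1481 CPM in such cells and 218 CPM in cells with 0 members in the neonatal library, and to 1730 and 210 CPM in the 24-month library. Cdkn1a was present in both kinds, at 926 and 757 CPM in neonatal and 691 and 483 CPM in 24-month cells. Nr4a3 had 0 UMIs in the 156 neonatal cells and 3 in the 217 24-month cells, so at this depth its level in such cells was not measurable.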

How the data were processed

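The bulk files hold whole-number read counts per gene as the authors deposited them. There are 4 tables, each scaled and tested on its own. The submitters' processing notes name Trimmomatic 0.36, featureCounts, Subread 1.5.1 and SAMtools, with mm10 as the genome build, and the aligner and annotation are not given in the sources used here. The single-cell files hold deposited counts (UMIs) of genes in barcodes, from 10x Genomics libraries per the labels. The labels name both poly(A) RNA and a kit for rRNA depletion. Columns were matched to samples by name or abbreviation, with some matches inferred. Those headed 13 and 15 months were taken, as the groups left over, for the 12-month and 18-month labels. Those headed GFP were taken for OECtrl, and those naming a day and an age but no transgene were taken for MGT. The 4 columns of the knockdown table that match no sample were not used. Genes were joined by identifier or symbol.

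The test was that of edgeR 4.0.16 in R 4.3.3 (filterByExpr, TMM, 1 coefficient per group, robust quasi-likelihood fit), run per table, with p adjusted over all genes tested, in 20 comparisons of which 3 are interaction terms. Alternatives were DESeq2 1.42.0, its size factors in edgeR, no filter, only the groups compared, the replicate number as a block, and each library left out. The labels state no pairing of groups by library number, and the groups were fitted unpaired. Correlations of same-numbered libraries lay between -0.078 and 0.069, which cannot exclude pairing because each group gives only 1 difference per gene.

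The members and the other gene lists were chosen with earlier results of these data known. By rule, all members are counted by role, 10 are given per library, and each comparison names the called member with the largest rise and fall and up to 4 called against the direction of most. Other lists name up to 3 genes with the smallest p. Cells needed 500 genes or more and 20% mitochondrial UMIs or less, and were clustered with scanpy 1.11.5 from 1959 variable genes, 50 components, 15 neighbours and a resolution of 0.5, into 13 clusters. A cluster was named from at least 3 markers of a list found in 25% of its cells. The median log2 fold of that list against all other cells also had to be at least 2.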

Additional observations from a re-analysis of the deposited data

Results flagged for a closer look

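The effect of MGT against LacZ was more negative in 18-month than in neonatal cells for 7 mitotic genes, by an interaction term in edgeR with adjustment over all genes. The log2 differences between the effects were -0.65 for Kif2c, -0.59 for Cdk1, -0.59 for Ccnb2, -0.59 for Birc5, -0.55 for Nek2, -0.54 for Racgap1 and -0.53 for Cdc20. With 2 libraries in each of the 4 groups the effect was lower at 18 months in each of these genes. None of the 7 was called in every alternative run.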

How the results depend on the processing

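No called member changed direction under any alternative run, while the median for MGT cells of 18 months against neonatal ranged from -0.057 to 0.13 with 1 library left out. Counts of called members moved by over 1.5 times with DESeq2 for CFs of 24 against 12 months (2), MGT cells of 3 months against neonatal (5) and of 18 against 3 months (3), and Nr4a3 overexpression (9). Without a filter on low counts the MGT effect differed for 12 members between 18 months and neonatal and for 1 between 18 and 3 months. Fitting only the groups compared gave 10 for MGT against LacZ at 3 months, 13 for MGT cells of 3 months against neonatal and 9 for 18 against 3 months. Whether same-numbered libraries are paired is not known. With the replicate block overexpression gave 25, and every count lay within 1.5 times of that reported.

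With 1 library left out, where a lone library is assumed to vary like the other groups, counts ranged from 1 to 11 for CFs of 24 against 12 months. For MGT against LacZ they ranged from 0 to 2 in neonatal and 8 to 25 in 3-month cells. For the differences of the MGT effect they ranged from 0 to 10 (3 months and neonatal), 0 to 11 (18 months and neonatal) and 0 to 3 (18 and 3 months). They ranged from 3 to 9 for LacZ cells of 18 against 3 months. For MGT cells they ranged from 1 to 11 (3 months against neonatal), 1 to 9 (18 months against neonatal) and 1 to 5 (18 against 3 months), and for overexpression from 4 to 29. Median log2 fold changes of the 36 ranged, among CFs, from 0.21 to 0.37 (3 months against neonatal), -0.59 to -0.40 (24 months against neonatal), -0.66 to -0.59 (12 against 3 months), -0.87 to -0.68 (24 against 3 months) and -0.24 to -0.066 (24 against 12 months). Among LacZ cells they ranged from 0.30 to 0.39 (3 months against neonatal) and 0.056 to 0.15 (18 against 3 months), and for MGT cells from 0.050 to 0.26 (3 months against neonatal) and -0.19 to -0.050 (18 against 3 months). For MGT against LacZ they ranged from -0.24 to -0.054 in neonatal cells, -0.39 to -0.28 at 3 months and -0.57 to -0.46 at 18 months. The differences of the effect ranged from -0.29 to -0.088, -0.51 to -0.30 and -0.27 to -0.12, in the order above. Overexpression ranged from -0.77 to -0.47 and the hairpin from -0.98 to -0.87. The causes were not tested, though fewer libraries also mean fewer degrees of freedom.

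In single cells the shares in the neonatal and the 24-month library were 9.96% and 6.66% for at least 2 members, 3.23% and 3.47% for at least 5, 36.9% and 26.6% without thinning, 3.26% and 3.08% at 1000 UMIs, 8.30% and 6.29% at 4000 UMIs, and 4.30% in neonatal cells without Pttg1 and Cenpa. Depth limits Cdc25c most, at 24 counts in 1 hairpin library.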

Other observations

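Genes of G1 and E2F were divided in direction in CFs from neonatal to 3 months. Of the 14 on the list 4 rose, against 28.0% of all genes, and 3 fell, against 24.4%, so both shares lay near the background. From neonatal to 3 months Ccnd1 fell by 1.85 ± 0.078 (log2, SE; edgeR adjusted p = 6.3e-11) and Ccnd2 by 1.17 ± 0.043 (edgeR adjusted p = 1.67e-21), both cyclins of early G1, while Ccne2, a cyclin of the G1 to S transition, rose by 0.83 ± 0.091 (edgeR adjusted p = 2.04e-09). From 3 to 24 months Ccnd2 rose by 0.70 ± 0.043 (edgeR adjusted p = 7.03e-14), and the repressor genes E2f8 and E2f7 fell by 1.11 ± 0.139 (edgeR adjusted p = 4.96e-07) and 0.78 ± 0.102 (edgeR adjusted p = 5.11e-07). Of that list 6 fell, against 9.47% of all genes, and 2 rose, with a median of -0.21, of the same sign as that of the mitotic genes. Named are those with the smallest p. Among inhibitors of cyclin-dependent kinases, Cdkn2c (p18) rose by 1.15 ± 0.075 (edgeR adjusted p = 1.07e-14) and Cdkn1c fell by 2.29 ± 0.197 (edgeR adjusted p = 8.63e-12) from neonatal to 3 months. With Nr4a3 overexpression Cdkn2a fell by 1.51 ± 0.185 (edgeR adjusted p = 0.00118).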
